A study of Mus musculus with 4 samples.

Results

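Forkhead genes other than Foxc1 and Foxc2 were followed across the cell types of the injured small intestine. They were the 10 genes Foxf1, Foxf2, Foxl1, Foxo1, Foxo3, Foxp1, Foxp3, Foxa1, Foxa2 and Foxa3, chosen by symbol from the 32286 features counted in each library. The list was set by gene name, with earlier results of these data known. The libraries held dissociated cells from the distal jejuna of 4 mice, taken 18.5 h after small intestinal ischemia/reperfusion (I/R), an injury by a temporary block of the blood supply. Control mice (n = 2) were Foxc1fl/fl;Foxc2fl/fl, and EC-Foxc-DKO mice (n = 2) were Cdh5-CreERT2;Foxc1fl/fl;Foxc2fl/fl, so that tamoxifen deleted both Foxc genes in endothelial cells, which the Cdh5 promoter marks. The mice were male and 7 to 8 weeks old when tamoxifen was given, and I/R came later. All 4 mice carried floxed Foxc alleles and all 4 had I/R, and uninjured intestine was not analysed here. Cells other than endothelial cells kept their Foxc genes in both genotypes, and each genotype was seen in only 2 mice with 1 library each.

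Forkhead factors are transcription factors that share a winged-helix DNA-binding domain. FOXF1, FOXF2 and FOXL1 act in the mesenchyme of the gut downstream of Hedgehog signals from the epithelium, and FOXF1 also acts in blood endothelial cells. FOXA1, FOXA2 and FOXA3 are pioneer factors of endoderm and of the intestinal secretory lineages. FOXO1 and FOXO3 are held in the cytoplasm by PI3K-AKT signals and turn on genes of quiescence, stress and lymphocyte homing when these signals fall, so that their activity is set largely at the protein. FOXP1 keeps lymphocytes quiescent, and FOXP3 defines regulatory T cells.

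The domain contacts DNA through its recognition helix. The coding stretch of this helix is compared here by its bases and not by its amino acids. It is given for 6 of the 10 genes, 36 bases each, written 5′ to 3′ on the coding strand as read from GRCm38 transcripts, with the 17 bases that are identical in these 6 genes in capitals.
Foxf1 (chr8:121084672-121084707, exon 1, plus strand): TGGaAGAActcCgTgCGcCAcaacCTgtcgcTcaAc
Foxf2 (chr13:31626509-31626544, exon 1, plus strand): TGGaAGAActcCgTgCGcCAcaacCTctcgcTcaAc
Foxl1 (chr8:121128238-121128273, exon 1, plus strand): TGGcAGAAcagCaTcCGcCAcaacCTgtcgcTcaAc
Foxo3 (chr10:42197872-42274821, exons 2 and 3, minus strand): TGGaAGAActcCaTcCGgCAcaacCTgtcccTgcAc
Foxp3 (chrX:7592746-7592929, exons 10 and 11, plus strand): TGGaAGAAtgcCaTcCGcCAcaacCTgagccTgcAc
Foxa3 (chr7:19014678-19014713, exon 2, minus strand): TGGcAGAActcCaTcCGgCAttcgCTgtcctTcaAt
For Foxo3 and Foxp3 the stretch runs over an intron, so that the coordinates span more than the bases shown. Foxf1 and Foxf2, of the same subfamily, were the closest pair, with 35 of the 36 bases identical, and the other 14 pairs shared 22 to 31 (median 27).

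Several of the 10 genes lie beside the deleted Foxc genes on the chromosome. Foxf1 (ENSMUSG00000042812), Foxc2 and Foxl1 (ENSMUSG00000097084) follow each other on chromosome 8, with gaps of 28.0 kb and 9.04 kb, and Foxf2 (ENSMUSG00000038402) lies 175.2 kb from Foxc1 on chromosome 13.

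The 4 libraries held 22679 barcodes, of which 5615 (24.8%) had at most 10% mitochondrial UMIs (unique molecular identifiers, 1 per captured RNA molecule) and were kept. Kept cells numbered 1446 and 348 in Controls and 2742 and 1079 in EC-Foxc-DKO mice, with medians of 14740, 6486, 4254.5 and 19871 UMIs per cell. Clustering without the 10 genes gave 23 cell types named from markers, and 125 cells stayed unnamed. Each named type expressed its own markers, but since at least 3 markers were required for a name, this is no separate check. Trdc and Tcrg-C1, genes of gamma-delta T cells, were also among the leading genes of the cluster named CD8+ T cells. Control replicate 2 stood apart by depth and cell number, and the libraries shared 51 barcodes, of which 2 were kept in more than 1 library. Foxc1 had 1 and 5 UMIs in blood endothelial cells (BECs) of Controls and 1 and 0 in those of the EC-Foxc-DKO mice, too few to check the labels, while Cre had 0, 0, 3 and 2 UMIs there. CPM stands for UMIs of the gene per 1000000 UMIs in all cells of 1 type and 1 mouse, and means are taken over mice with their SD. Since cells were sorted into types by clustering, levels by type are a description with no test. Intervals of shares of cells are exact binomial 95% intervals, and these and the limits set by 3 counts cover counting error only. CPM of a 3′ tag are not corrected for length, and levels are therefore compared between cell types and not between genes.

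Over all kept cells, Foxp1, Foxo1 and Foxo3 were counted in every one of the 23 cell types, with 6000, 2873 and 2076 UMIs. The FoxA genes were largely epithelial, with 664 UMIs of Foxa1 in 11 types, 176 of Foxa2 in 5 types and 550 of Foxa3 in 13 types. Foxf1 had 104 UMIs in 5 types and Foxf2 23 UMIs in 2 types, while Foxp3 had 15 UMIs in 6 cells and Foxl1 only 4 UMIs in 2 cells. Thus 7 of the 10 genes reached 50 UMIs, against 13 of the 32 other forkhead genes among the features, of which 13 had no UMI and Foxn3 had the most (3562). The map of mean levels shows these patterns side by side.

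**Figure D1:**
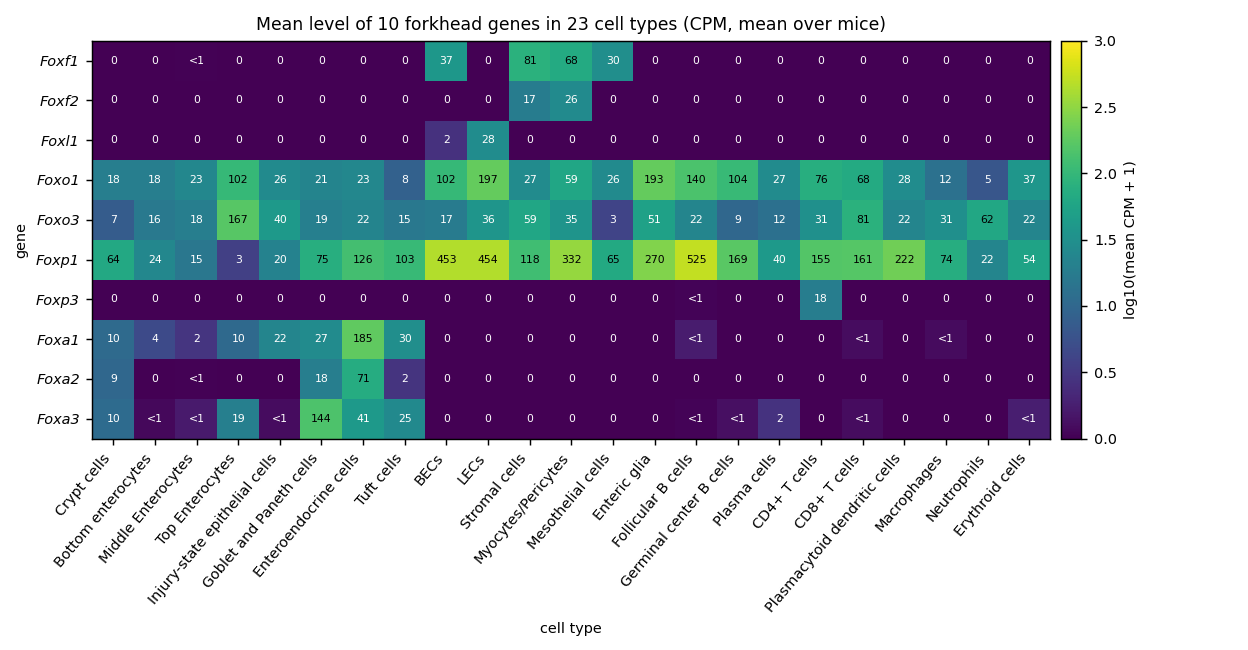
Mean level of the 10 forkhead genes (rows) in 23 cell types (columns), in CPM averaged over the mice with cells of that type, with color on a log10(mean CPM + 1) scale and the mean written in each cell. Foxp1, Foxo1 and Foxo3 have no cell at 0, the FoxA genes lie in the epithelial columns on the left, Foxf1 lies mainly in the BEC and mesenchymal columns, and Foxf2 lies in 2 mesenchymal columns.

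Foxf1 was found in BECs and in all 3 mesenchymal types. In stromal cells (Telocytes/Trophocytes), Control replicates 1 and 2 had 204 and 59.8 CPM and EC-Foxc-DKO replicates 1 and 2 had 59.6 and 0 CPM, a mean of 80.9 ± 86.8 (SD, n = 4 mice). At least 5 stromal cells (29 and 40) were found only in Control replicate 2 and EC-Foxc-DKO replicate 1, which lay together at 59.7 ± 0.115 CPM (SD, n = 2), whereas the extremes came from 2 cells and 1 cell. In Myocytes/Pericytes, Foxf1 had 150 and 35.2 CPM in Controls against 87.0 and 0 CPM in EC-Foxc-DKO mice, the last in 2 cells. In BECs the 4 mice were closer, with 47.1, 22.3, 46.4 and 34.0 CPM (37.4 ± 11.8, SD, n = 4), and the genotypes overlapped. Mesothelial cells, seen in 2 mice only, had 21.5 and 37.7 CPM. The means of these 4 types differed by less than the larger of their SDs at the first 3 steps, so that their order is not fixed by these mice. The remaining UMI lay in 1 of 609 Middle Enterocytes.

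A Foxf1 UMI was found in 33.3% of 72 stromal cells (95% CI 22.7 to 45.4), in 37.0% of 46 Myocytes/Pericytes (23.2 to 52.5) and in 17.5% of 171 BECs (12.2 to 24.1), at medians of 6094.5, 4859.5 and 4254 UMIs per cell. With cells thinned to 1000 UMIs each, the shares became 6.94%, 8.40% and 4.30%. In Follicular B cells, a type without known Foxf1 expression, the share was 0 of 1379 cells at a median of 3248 UMIs. Lymphatic endothelial cells (LECs) had 0 Foxf1 UMIs in 18 cells from 3 mice, a depth that allows up to 24.9 CPM. The stromal markers Col1a1, Lum and Pdgfra had 0 UMIs in BECs, where the 10 stromal markers summed to 548 to 1074 CPM per mouse and the 10 markers of Myocytes/Pericytes to 47.1 to 612 CPM.

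Foxf2 was detected in 2 of the 23 types, both mesenchymal. Myocytes/Pericytes had 29.9 and 70.5 CPM in Controls against 5.12 and 0 CPM in EC-Foxc-DKO mice, and stromal cells had 0 and 34.9 CPM and 33.5 and 0 CPM. All zeros came from mice with 1 or 2 cells of the type. Foxf2 had 0 UMIs in 171 BECs, which allows a share of up to 1.75% of cells with a UMI and 3.26 CPM, and does not show that BECs lack its RNA. Both genes were seen together in 2 of 46 Myocytes/Pericytes (17 with Foxf1, 6 with Foxf2) and in 3 of 72 stromal cells (24 and 16).

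Foxl1, a marker of telocytes next to the crypt, had 0 UMIs in all 72 stromal cells, which allows up to 4.17% of cells with a UMI and 6.23 CPM, at a median of 6094.5 UMIs per cell. Its 4 UMIs were 3 in 1 LEC of EC-Foxc-DKO replicate 1 and 1 in a BEC of Control replicate 1. The libraries therefore do not describe the level of Foxl1 in its usual cell. Over all barcodes, kept or not, it had 7 UMIs.

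**Figure D2:**
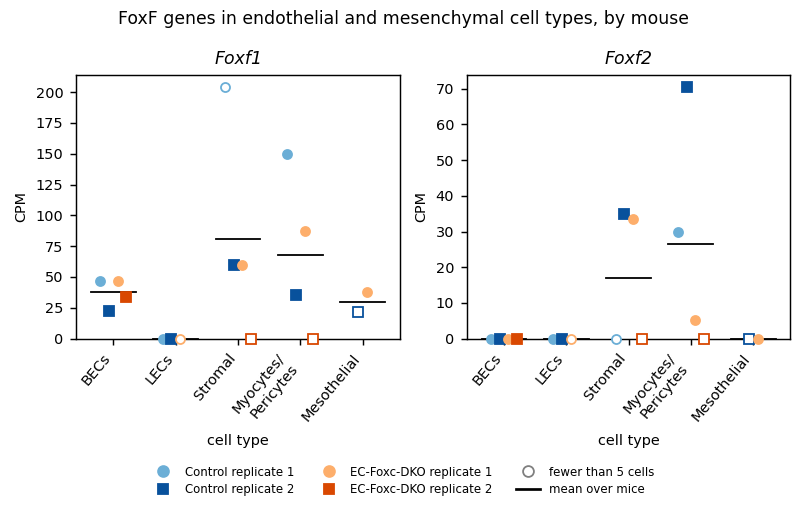
Level of Foxf1 (left) and Foxf2 (right) in CPM, by endothelial and mesenchymal cell type, with 1 point per mouse (blue: Control, orange: EC-Foxc-DKO), open points for fewer than 5 cells and a line at the mean over mice. Foxf1 is above 0 in BECs of all 4 mice (22.3 to 47.1 CPM), where Foxf2 is at 0.

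Hedgehog ligands, receptors and targets were read in the same cells, since this pathway drives FoxF genes in the gut. Among the ligands, Ihh was epithelial, at 16.3 ± 5.70 CPM in Crypt cells and 40.8 ± 17.3 CPM in Middle Enterocytes (SD, n = 4), with 0 UMIs in stromal cells. Ptch1, the receptor and a target of the pathway, had 169 and 142 CPM in the 2 mice with at least 5 stromal cells and 38.2 ± 20.3 CPM in BECs. Its effector Gli1 had 6 UMIs in stromal cells, and Gli1, Gli2 and Gli3 had 0 in BECs. Of the 14 Hedgehog genes, 12 had a UMI in stromal cells, 11 in Myocytes/Pericytes and 8 in BECs. Among 14 genes of the stromal niche, all 14 were seen in stromal cells and 7 in BECs. In the same 2 mice, Pdgfra, a receptor that marks subepithelial stroma, had 822 and 771 CPM in stromal cells, and Grem1, a BMP antagonist of trophocytes, had 892 and 883 CPM. The mice with 2 cells and 1 cell lay far from these, at 3674 and 403 CPM of Pdgfra and 0 and 5106 CPM of Grem1. Grem1 was not limited to stromal cells, with 294 UMIs in Myocytes/Pericytes at 0 to 1454 CPM per mouse. Nkx2-3, a homeobox gene of gut endothelium and mesenchyme, had 346 ± 144 CPM in BECs. Expression of Foxf1 thus ran across both compartments, whereas Pdgfra had 0 UMIs in BECs and in Myocytes/Pericytes.

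Foxa1 (ENSMUSG00000035451) was highest in Enteroendocrine cells, the hormone-producing cells of the epithelium. There, Control replicates 1 and 2 had 204 and 180 CPM and EC-Foxc-DKO replicates 1 and 2 had 242 and 114 CPM, a mean of 185 ± 53.8 (SD, n = 4), and the genotypes overlapped. Tuft cells followed with 21.5 and 57.0 CPM and 10.4 and 29.2 CPM, and Goblet and Paneth cells with 33.1 and 0 CPM and 21.2 and 52.5 CPM. The lowest Enteroendocrine value was above every value of the other types. The gap from Enteroendocrine to Tuft cells was larger than the SD of either, and the means of Tuft cells and of Goblet and Paneth cells (29.6 and 26.7 CPM) differed by less than their SDs. Crypt cells had 6.34 and 13.6 CPM in Controls against 10.0 and 9.40 CPM in EC-Foxc-DKO mice.

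Bottom and Middle Enterocytes held little Foxa1, with means of 3.72 ± 1.96 CPM and 1.90 ± 1.33 CPM (SD, n = 4). Top Enterocytes had 7.56 and 26.6 CPM in Controls and 4.56 and 0 CPM in EC-Foxc-DKO mice, from 221, 3, 99 and 2 cells. A Foxa1 UMI was found in 72.7% of 77 Enteroendocrine cells (95% CI 61.4 to 82.3), against 0.218% of 1379 Follicular B cells (0.0449 to 0.634), at medians of 11444 and 3248 UMIs per cell. After thinning to 1000 UMIs the shares were 22.4% and 0.0960%.

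Foxa2 (ENSMUSG00000037025) was counted mostly in secretory and crypt cells. It had 36.8 and 125 CPM in Enteroendocrine cells of the Control mice and 35.2 and 85.5 CPM in those of the EC-Foxc-DKO mice (70.6 ± 43.1, SD, n = 4), so that in both genotypes replicate 2 was the higher mouse. Goblet and Paneth cells were even across mice, with 19.8 and 16.6 CPM and 15.9 and 19.97 CPM (18.1 ± 2.13). Crypt cells had 1.73 and 17.5 CPM and 11.5 and 5.35 CPM, a spread in which the Control mice formed both ends. These 3 types held 98.3% of its 176 UMIs. Bottom enterocytes had 0 Foxa2 UMIs in 668 cells at a median of 30969.5 UMIs per cell, which allows up to 0.449% of cells with a UMI and 0.132 CPM.

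Foxa3 (ENSMUSG00000040891) was highest in Goblet and Paneth cells, the mucus and antimicrobial cells. It had 141 and 116 CPM there in Controls against 154 and 165 CPM in EC-Foxc-DKO mice (144 ± 21.1, SD, n = 4), with only 4 cells behind Control replicate 2. Enteroendocrine cells had 17.0 and 27.7 CPM and 39.1 and 78.4 CPM, and Tuft cells had 4.78 and 57.0 CPM and 3.48 and 36.6 CPM. These types had too few cells in Control replicate 2 (5 Enteroendocrine cells and 3 Tuft cells) for a test of genotype, and how often the groups separate over all genes was not computed for them. The lowest Goblet and Paneth value lay above the highest of the other types. A Foxa3 UMI was present in 70.9% of 127 Goblet and Paneth cells (95% CI 62.1 to 78.6), against 0.0725% of Follicular B cells (0.00184 to 0.403), at medians of 13417 and 3248 UMIs, or in 14.9% and 0.0174% after thinning. Goblet and Paneth cells held 62.5% of its 550 UMIs.

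**Figure D3:**
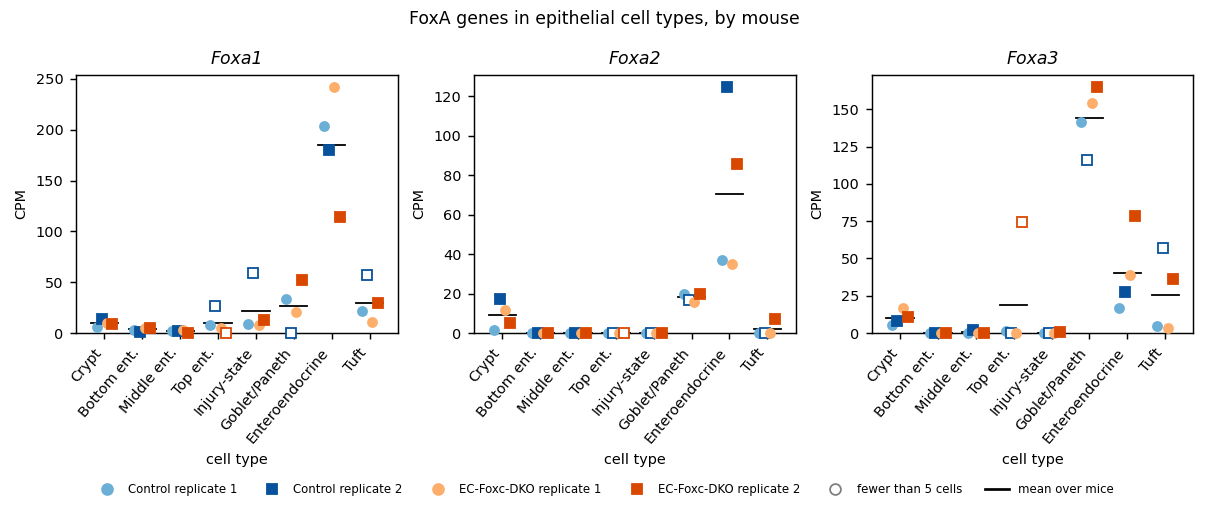
Level of Foxa1, Foxa2 and Foxa3 in CPM (vertical axis) in 8 epithelial cell types, with 1 point per mouse (blue: Control, orange: EC-Foxc-DKO), open points for fewer than 5 cells and a line at the mean over mice. Foxa1 and Foxa2 peak in Enteroendocrine cells (means of 185 and 70.6 CPM) and Foxa3 in Goblet and Paneth cells (144 CPM), while bottom and middle enterocytes stay near 0.

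The FoxA genes were also read within single cells. In Crypt cells, 26 of 218 cells had both Foxa1 and Foxa2 (70 and 40 cells), 39 had Foxa1 and Foxa3 (60 cells with Foxa3), and 25 had Foxa2 and Foxa3. In Goblet and Paneth cells, 27 of the 32 cells with Foxa2 also had Foxa3. In Enteroendocrine cells, 16 of the 24 cells with Foxa2 also had Foxa1. Since deep cells give UMIs of every gene more often, these counts are a description of the cells only.

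Crypt cells with a UMI of Foxa2 or Foxa3 were compared with the others on 16 genes of the secretory lineages. The 40 cells with Foxa2 had 388 CPM of these genes and the 178 others 95.6 CPM, but the mice were split: 4.65 against 48.0 CPM in Control replicate 1, 549 against 31.6 in Control replicate 2, 765 against 54.5 in EC-Foxc-DKO replicate 1 and 92.0 against 128 in EC-Foxc-DKO replicate 2. Cells with the gene were thus higher in 2 of 4 mice. For Foxa3 the sums were 312 CPM in 60 cells and 96.3 CPM in 158 cells, with the higher level in the cells with Foxa3 in the same 2 mice (1074 against 30.0 and 875 against 47.7 CPM). The 9 UMIs of Atoh1, the factor that commits cells to the secretory fate, all lay in cells with both genes. Marker RNA of Goblet and Paneth cells in the crypt cluster summed to 46.1 and 381 CPM in Controls against 975 and 273 CPM in EC-Foxc-DKO mice, and its part in these sums was not tested.

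Genes of the secretory lineages were high in the types that led for FoxA genes. These types were named from markers of secretory cells, so that this is no separate check. Neurod1, a factor of endocrine cells, had 1164 ± 214 CPM in Enteroendocrine cells, and Atoh1 and Spdef, factors of secretory and goblet cells, had 162 ± 43.6 and 197 ± 81.5 CPM in Goblet and Paneth cells (SD, n = 4). Spdef had 2 UMIs in Enteroendocrine cells and Neurod1 had 0 in Goblet and Paneth cells. All 13 epithelial transcription factors were seen in Crypt cells, led by Klf5, a factor of proliferating epithelium, at 510 ± 79.3 CPM and by Hnf4a, a regulator of enterocyte genes, at 202 ± 27.9 CPM. Of these 13, Ascl2, a factor of intestinal stem cells, had 0 UMIs in Enteroendocrine cells.

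Proximal promoters of Foxa1 and Foxa3 are shown as examples of genes that peaked in a single secretory type, as Foxa2 did too. They are the 250 bases before the transcription start in the RefSeq table of GRCm38.p6, written 5′ to 3′ on the strand of the gene. Capitals mark the forkhead motif TGTTTAC on either strand (in Foxa1, as GTAAACA, starting 141 bases before the start) and the motif TATAAA (in Foxa3, starting 36 bases before the start).
Foxa1 (chr12:57546112-57546361, minus strand): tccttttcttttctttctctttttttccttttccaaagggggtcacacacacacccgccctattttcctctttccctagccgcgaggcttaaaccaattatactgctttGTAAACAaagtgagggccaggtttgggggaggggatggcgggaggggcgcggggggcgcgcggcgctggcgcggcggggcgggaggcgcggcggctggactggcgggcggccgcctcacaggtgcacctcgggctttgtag
Foxa3 (chr7:19023540-19023789, minus strand): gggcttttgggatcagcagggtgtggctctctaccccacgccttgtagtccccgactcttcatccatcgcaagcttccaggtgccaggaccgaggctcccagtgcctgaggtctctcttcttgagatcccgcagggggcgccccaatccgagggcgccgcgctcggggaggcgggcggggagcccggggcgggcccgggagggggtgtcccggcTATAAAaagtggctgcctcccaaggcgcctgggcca
Of 32851 such windows of the genome, 3.17% held TGTTTAC and 12.4% held TATAAA, on either strand, each motif counted separately. RefSeq windows were matched for 8 of the 10 genes (13 windows), and among them only Foxa1 held TGTTTAC, while Foxa2, Foxa3 and Foxp3 held TATAAA. Such a match describes letters and not a bound site. The Foxa1 window lies inside the annotated span of the gene (chr12:57540628-57546916), so that it is upstream of the RefSeq start only.

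Foxp1 (ENSMUSG00000030067) was the most widely counted of the 10 genes and was highest in Follicular B cells and endothelium. In Follicular B cells it had 546 and 599 CPM in Controls against 434 and 521 CPM in EC-Foxc-DKO mice (525 ± 68.7, SD, n = 4). Both EC-Foxc-DKO mice were below both Control mice there, as were 13.6% of all genes tested in that type after TMM scaling. BECs had 524 and 473 CPM and 518 and 297 CPM (453 ± 106), and LECs had 321, 653 and 389 CPM in the 3 mice with such cells (5, 10 and 3 cells). The means of these types differed by less than the largest of their SDs. A Foxp1 UMI was found in 73.3% of Follicular B cells (95% CI 70.9 to 75.6), 76.0% of BECs (68.9 to 82.2) and 5.23% of Top Enterocytes (3.08 to 8.24), although the last were the deepest of the 3 types, with medians of 3248, 4254 and 12558 UMIs per cell.

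Other lymphoid and neural cells had intermediate levels of Foxp1. Plasmacytoid dendritic cells had 200, 227, 211 and 250 CPM in the 4 mice (222 ± 21.5), CD8+ T cells 142, 193, 135 and 175 CPM (161 ± 27.5), and Enteric glia 180, 231, 330 and 337 CPM (270 ± 76.8). Plasma cells, which have left the B cell program, had 20.8, 32.8, 71.6 and 35.1 CPM. The lowest Follicular B value was above the highest value of Germinal center B cells, which ranged from 113 to 307 CPM. In the B lineage the level of Foxp1 thus stood highest in resting cells and lowest in Plasma cells.

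Along the axis from crypt to villus top, the level of Foxp1 was lower at each step in 3 of 4 mice. Control replicate 1 had 57.1 CPM in Crypt cells, 29.8 in Bottom enterocytes, 19.3 in Middle Enterocytes and 3.15 in Top Enterocytes. Control replicate 2 had 87.5, 23.2, 20.3 and 0 CPM, and EC-Foxc-DKO replicate 1 had 51.6, 25.5, 18.8 and 7.81 CPM. These are the 3 mice with a lower level at every step. EC-Foxc-DKO replicate 2 had 58.0, 16.3, 0 and 0 CPM, with 11 Middle and 2 Top Enterocytes behind the zeros. Control replicate 2 had only 3 Top Enterocytes. The 4 types come from clusters of enterocyte markers, and their order on the villus is that of the markers.

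Foxo3 (ENSMUSG00000048756) was higher at the top than in the crypt in all 4 mice. Crypt cells had 12.1 and 0 CPM in Controls against 7.89 and 6.16 CPM in EC-Foxc-DKO mice, and Top Enterocytes had 97.1, 106, 92.4 and 371 CPM. The 2 mice with at least 5 Top Enterocytes averaged 94.7 ± 3.27 CPM (SD), and the value of 371 came from 2 cells. Bottom enterocytes had 18.8, 14.6, 14.3 and 14.3 CPM and Middle Enterocytes 14.97, 31.6, 21.4 and 5.21 CPM. Only Control replicate 2 and EC-Foxc-DKO replicate 1 were therefore higher at every step, and the others were lower from bottom to middle. A Foxo3 UMI was found in 64.6% of 325 Top Enterocytes (95% CI 59.1 to 69.8) and 27.1% of 218 Crypt cells (21.3 to 33.5), although Crypt cells were deeper, with medians of 12558 and 45934.5 UMIs. After thinning, the shares were 9.88% and 0.646%. Top Enterocytes held 22.1% of all Foxo3 UMIs.

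Foxo1 (ENSMUSG00000044167) differed less along the villus, with 24.2, 11.7, 18.3 and 18.8 CPM in Crypt cells of the 4 mice and 52.0 and 59.2 CPM in Top Enterocytes of the 2 mice with at least 5 such cells. The mice with 3 and 2 Top Enterocytes had 0 and 296 CPM. Between these ends, Bottom enterocytes (17.9 ± 3.03 CPM) and Middle Enterocytes (23.4 ± 8.71 CPM) differed by less than the larger SD.

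**Figure D4:**
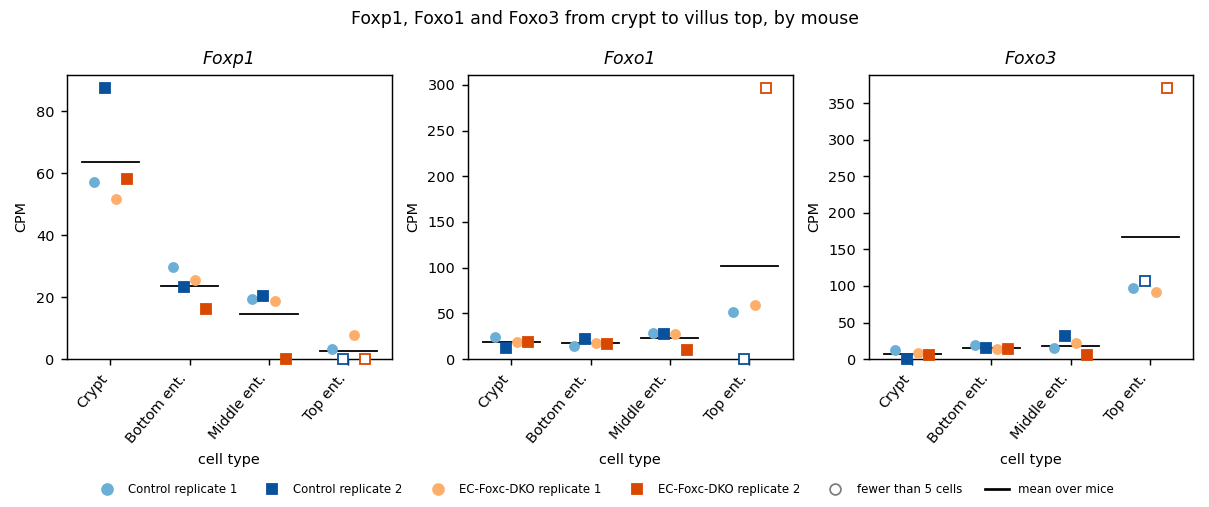
Level of Foxp1, Foxo1 and Foxo3 in CPM (vertical axis, own scale in each panel) in Crypt cells and in bottom, middle and top enterocytes, with 1 point per mouse (blue: Control, orange: EC-Foxc-DKO), open points for fewer than 5 cells and a line at the mean over mice. Foxp1 has a mean of 63.5 CPM in Crypt cells and of 2.74 CPM at the top, and Foxo3 lies at 92.4 CPM or above at the top in all 4 mice.

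Outside the epithelium, Foxo1 and Foxo3 had their highest mean levels in different cell types, although both were counted in every type. Foxo1 was highest in LECs, with 229 and 112 CPM in Controls (5 and 10 cells) against 250 CPM in EC-Foxc-DKO replicate 1 (3 cells). Next came Enteric glia, with 144, 301, 143 and 184 CPM (193 ± 74.2, SD, n = 4), and Follicular B cells, with 167, 78.8, 86.3 and 226 CPM (140 ± 70.2). BECs were more even across mice, with 87.4, 120, 107 and 93.5 CPM (102 ± 14.7). Neighbours in this order differed by less than their spread. CD8+ T cells had 69.7 and 73.8 CPM in Controls against 70.8 and 57.0 CPM in EC-Foxc-DKO mice. The lowest means were those of Neutrophils (5.38 CPM, from 2 UMIs) and Tuft cells (7.65 CPM, from 15 UMIs).

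After Top Enterocytes, Foxo3 was highest in CD8+ T cells, with 90.9 and 73.8 CPM in Controls against 70.8 and 89.6 CPM in EC-Foxc-DKO mice (81.3 ± 10.5, SD, n = 4). Neutrophils followed with 48.4, 78.3 and 60.5 CPM in the 3 mice that had them, from only 6, 4 and 1 UMIs. In Follicular B cells, Foxo3 had 31.0 and 31.5 CPM in Controls against 16.3 and 9.83 CPM in EC-Foxc-DKO mice. These came from 13, 2, 73 and 1 UMIs, so that the separation rests on few counts. The groups did not overlap, as in 28.9% of all genes tested there after TMM scaling. In BECs Foxo3 had 0 and 8.92 CPM and 23.2 and 34.0 CPM, from 16 UMIs in all. Again the groups did not overlap, as in 29.9% of all genes tested there. Foxo3 itself had too few counts for a test of genotype in either type, and its values here are without TMM scaling. Both genes were counted together in 115 of 325 Top Enterocytes, 25 of 410 CD8+ T cells and 10 of 171 BECs.

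Known FoxO targets were read at both ends of the villus. In the 2 mice with at least 5 Top Enterocytes, Control replicate 1 and EC-Foxc-DKO replicate 1, Ccng2, a brake on the cell cycle, had 424 and 389 CPM there, against 9.76 ± 4.27 CPM in Crypt cells (SD, n = 4 mice). Cdkn1a, a cyclin-dependent kinase inhibitor, had 371 and 406 CPM at the top and 105 ± 40.1 CPM in Crypt cells. Sod2, the mitochondrial superoxide dismutase, was lower at the top, with 17.6 and 22.8 CPM against 173 ± 26.7 CPM. These 3 genes were named for their role after their values were seen, and they do not stand for the direction of the whole list. The target list as a whole did not separate the types by presence, since 23 of its 24 genes had a UMI in each. In Follicular B cells the lymphocyte target Klf2, a quiescence factor, had 595 ± 185 CPM. Among 13 regulators of FoxO in the PI3K-AKT pathway, Sgk1, a kinase that phosphorylates FOXO3, had 221 and 78.1 CPM in Top Enterocytes of these 2 mice and 10.7 ± 10.4 CPM in Crypt cells. The mice with 3 and 2 Top Enterocytes had 26.6 and 667 CPM. Akt1 had 6.93 and 5.86 CPM at the top of the same 2 mice and 80.4 ± 16.7 CPM in Crypt cells.

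Foxp3 (ENSMUSG00000039521) was counted in 5 CD4+ T cells and 1 Follicular B cell. CD4+ T cells had 0 UMIs in 3 cells of Control replicate 1, 40.2 CPM in 16 cells of Control replicate 2, 15.5 CPM in 99 cells of EC-Foxc-DKO replicate 1 and 15.5 CPM in 16 cells of EC-Foxc-DKO replicate 2, from 0, 1, 3 and 1 cells with a UMI. A UMI was thus found in 3.73% of 134 CD4+ T cells (95% CI 1.22 to 8.49), against 0.0725% of 1379 Follicular B cells (0.00184 to 0.403), at medians of 5140.5 and 3248 UMIs, or in 2.38% and 0.0180% after thinning. CD8+ T cells had 0 of 410. The number of cells was too small for the share to be compared between genotypes, and 2 mice against 2 cannot reach an exact permutation p below 0.333.

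The 5 CD4+ T cells with Foxp3 were rich in genes of regulatory T cells. A list of 19 such genes summed to 6493 CPM in these cells and to 1062 CPM in the 129 others, and it was higher in each of the 3 mice that had both kinds of cell (9663 against 851, 6161 against 1135 and 3363 against 637 CPM). Of the 19 genes, 13 were higher, 5 were lower and 1 had no UMI. Ctla4, an inhibitory receptor, was found in all 5 cells, at 1443 CPM against 189 CPM. Several of these genes are not specific to such cells, and Itgae and Ikzf2 had 815 ± 35.9 and 790 ± 126 CPM in CD8+ T cells, where Foxp3 was at 0. The kept cell with Foxp3 of Control replicate 2 had the T cell gene Cd3e and the epithelial marker Epcam but no Cd4. Of the 4 kept cells of EC-Foxc-DKO replicate 1, which include the Follicular B cell, 3 had Cd3e, 3 had Cd4 and 2 had Epcam. The kept cell of EC-Foxc-DKO replicate 2 had neither Cd3e nor Cd4.

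To place the genes among all others, the genes with the most similar pattern were taken over the 21 types of at least 20 cells, by Pearson correlation of log2(mean CPM + 1) over 13897 genes, as a description over shared libraries. Foxf1 was most like Galnt15 (r = 0.99), Lox (0.99) and Lrrc32 (0.99), and Foxp1 was most like Rai1 (0.91), Paip2 (0.91) and Ldb1 (0.91). Partners of Foxo1 were Nsun6 (0.80), Maml2 (0.77) and Elk4 (0.77), and those of Foxo3 were Aff1 (0.77), Ip6k1 (0.77) and Fosl2 (0.77). For the FoxA genes the partners were Myrf, Lgals7 and 1700110K17Rik for Foxa1 (0.92 to 0.90), Agr3, 5330417C22Rik and Ttr for Foxa2 (0.99 to 0.94), and Myo5c, Tff3 and Mmp7 for Foxa3 (0.95 to 0.88). Within the list, r was 0.79 to 0.82 between the 3 FoxA genes and 0.20 between Foxo1 and Foxo3. Foxf1 and Foxa2 each were at 0 in 18 of the 23 named types, so that their r rests on few types with a UMI. Foxo1 and Foxo3 were counted in every type, and the size of r is therefore not compared between genes.

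Finally, the genotypes were compared to ask whether endothelial loss of Foxc1 and Foxc2 went with a change of the other forkhead genes. UMIs were summed per mouse and tested with edgeR's quasi-likelihood test in 9 cell types with at least 10 cells in every mouse and in 6 broader lineages, with Benjamini-Hochberg adjustment over all genes tested. The filter on low counts left 25 tests of 6 members in 8 cell types: 8 each of Foxo1 and Foxp1, 5 of Foxo3, 2 of Foxa1 and 1 each of Foxa2 and Foxa3. Foxf1 was tested only in the mesenchymal lineage, and Foxf2, Foxl1 and Foxp3 had too few UMIs for any test. None of the 25 tests was called (0 at an adjusted p under 0.05), 0 had an unadjusted p under 0.05, and DESeq2 called 0 as well. Over all genes edgeR called 0% in 8 of the 9 cell types and 1 of 8484 genes (0.0118%) in Middle Enterocytes, and in each of the 6 lineages it called 0%, so that these libraries gave few calls for any gene. The log2 fold changes of EC-Foxc-DKO over Control ran from -0.55 to 1.19, with 17 below 0 and 8 above, and all adjusted p-values were at least 0.999.

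**Figure D5:**
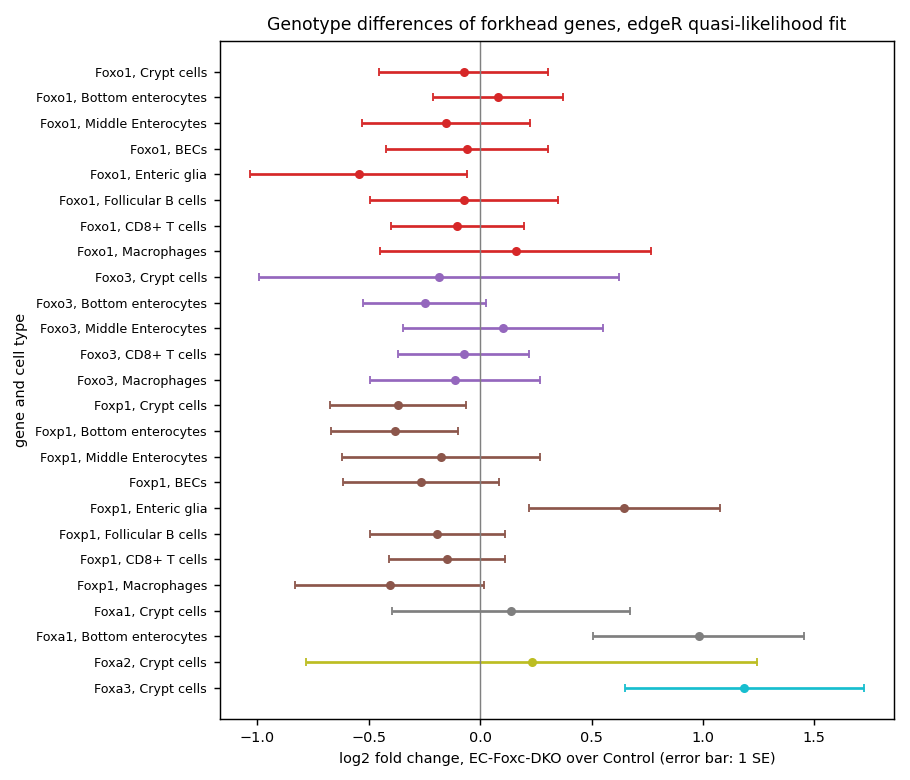
log2 fold change of EC-Foxc-DKO over Control for the 25 tests of forkhead genes in cell types (points) with 1 SE on each side (bars), from edgeR's quasi-likelihood fit. The estimates run from -0.55 (Foxo1 in Enteric glia) to 1.19 (Foxa3 in Crypt cells), and none passed the adjusted threshold.

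Largest among them was Foxa3 in Crypt cells, with 5.19 and 7.78 CPM in Controls against 16.8 and 10.7 CPM in EC-Foxc-DKO mice. This gave a log2 fold change of 1.19 (SE 0.54), at an edgeR adjusted p of 0.999. It was the only one of 6 members tested there with both EC-Foxc-DKO mice above both Control mice after TMM scaling, a pattern that 14.9% of all genes tested in Crypt cells had, while 29.7% did not overlap in either direction. Goblet and Paneth marker RNA in these cells was highest in EC-Foxc-DKO replicate 1 (975 CPM), the mouse with the highest Foxa3, and its part in the difference was not tested. In the whole epithelial lineage, Foxa3 had a log2 fold change of 1.14 (SE 0.50) and was the only one of 6 members with no overlap in this direction, against 11.8% of all genes, while the kept Goblet and Paneth cells numbered 32, 4, 48 and 43. Crypt values of Foxa1 (log2 fold change 0.14, SE 0.54) and Foxa2 (0.23, SE 1.01) overlapped between the genotypes.

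In Bottom enterocytes, Foxa1 had 3.1 and 1.22 CPM in Controls against 5.26 and 5.31 CPM in EC-Foxc-DKO mice, with a log2 fold change of 0.98 (SE 0.47). The value of Control replicate 2 was 1 UMI. It was 1 of 4 members tested with no overlap in this direction, against 17.4% of all genes. In Enteric glia, Foxp1 was 1 of 2 members tested with both EC-Foxc-DKO mice above (log2 fold change 0.65, SE 0.43), against 13.4% of all genes. In Follicular B cells, Foxp1 was 1 of 2 members with both EC-Foxc-DKO mice below (-0.19, SE 0.30), against 13.6% of all genes. The other 21 of the 25 tests had groups that overlapped after this scaling, including all tests in BECs, CD8+ T cells, Macrophages and Middle Enterocytes, where 29.9%, 30.1%, 30.9% and 30.4% of all genes did not overlap.

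In BECs, the cells in which the Foxc genes were deleted, only Foxo1 and Foxp1 could be tested. Foxp1 had a log2 fold change of -0.27 (SE 0.35), with 2 SE on each side reaching from -0.97 to 0.43, and Foxo1 had -0.06 (SE 0.36), reaching from -0.78 to 0.66. These ranges describe the uncertainty of the estimates with 2 mice a group and are not limits of detection. A p that misses the threshold does not show equal levels. Foxf1 in BECs (47.1 and 22.3 against 46.4 and 34.0 CPM) did not pass the filter. In the mesenchymal lineage, Foxf1 had 153 and 45.6 CPM in Controls against 62.6 and 0 CPM in EC-Foxc-DKO mice (log2 fold change -0.78, SE 0.90), the last in only 3 cells. Of 3 members tested there, after TMM scaling Foxp1 had both EC-Foxc-DKO mice above (9.78% of all genes) and Foxo1 both below (16.1% of all genes). Without this scaling the groups overlapped for Foxo1 (55.7 and 48.5 against 38.5 and 59.1 CPM), with 1 UMI behind the last value.

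The lists of related genes gave 0 edgeR calls in any of the 15 sums, and DESeq2 called at most 7 genes of all genes in a sum. In the T cell lineage, 7 of 8 genes of naive lymphocytes had an unadjusted p under 0.05, against 3.40% of all genes tested, with a median log2 fold change of 1.27 against -0.0025 for all genes tested, but in CD8+ T cells alone 2 of 3 did (2.18% of all genes), at a median of -1.002. By mean CPM, the 3 highest of these 8 in the lineage were Il7r, the IL-7 receptor (98.8 and 104 against 141 and 206 CPM), Tcf7, a factor of naive T cells (113 and 97.4 against 152 and 126 CPM), and Satb1, a chromatin organizer (49.4 and 79.7 against 122 and 226 CPM). Tcf7 was not among the 7, with an edgeR unadjusted p of 0.0734. In CD8+ T cells alone, both EC-Foxc-DKO mice were lower for Il7r (57.6 and 62.4 against 14.7 and 28.5 CPM). They were lower for Tcf7 too (106 and 56.7 against 41.3 and 36.7 CPM), while Satb1 overlapped (42.4 and 22.7 against 27.5 and 106 CPM). The share of CD4+ T cells in the T cell lineage differed between mice, with 3, 16, 99 and 16 CD4+ against 67, 61, 213 and 69 CD8+ T cells, and its part was not tested. FoxO targets had an unadjusted p under 0.05 for 6 of 17 genes in the T cell lineage, 4 of 8 in the endothelial lineage and 4 of 17 in Bottom enterocytes, against 3.40%, 4.58% and 3.03% of all genes. The numbers of CD4+ and CD8+ T cells given above apply to the first of these too. The endothelial lineage held 5, 10, 3 and 0 LECs beside 31, 29, 87 and 24 BECs in the 4 mice, and their part was not tested. Klf2 belongs to both lists, so that their counts are not separate, and no list was tested as a set. In BECs, Klf2 had 847 and 847 against 1121 and 1240 CPM (edgeR unadjusted p = 0.0945). Txnip, an inhibitor of thioredoxin, had 1015 and 1690 against 933 and 476 CPM there. The groups did not overlap for either gene, as for 29.9% of all genes tested in BECs after TMM scaling. Secretory genes had a median log2 fold change of 1.46 over 5 tested in Crypt cells and of 1.04 over 14 in the epithelial lineage, where the median of all genes was -0.0037 in both. Marker RNA of Goblet and Paneth cells in the crypt cluster (46.1 and 381 against 975 and 273 CPM) and the number of these cells in the lineage (32 and 4 against 48 and 43) differed between mice, and their part was not tested. Among the secretory genes, Agr2, a goblet cell chaperone, had 9.80 and 7.78 against 88.5 and 41.0 CPM in Crypt cells (log2 fold change 2.82, SE 0.52, edgeR adjusted p = 0.999). Agr2 does not stand for all of the list. Muc2 was high there mainly in EC-Foxc-DKO replicate 1 (6.92 and 5.83 against 37.99 and 7.78 CPM). Tff3, the gene of the list with the highest mean CPM in Crypt cells, overlapped between the genotypes (8.65 and 235 against 140 and 55.2 CPM). Its estimate lay below 0, at -0.245.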

How the data were processed

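Single cells of distal jejuna were captured with 10x Genomics 3′ v3.1 kits. The UMI counts per gene and barcode that the authors deposited were made with Cell Ranger on mm10 (version 4.0.0 by the file headers and processing notes) with Cre added to the reference, and were not normalized. No column was left unmapped. From these counts, barcodes with over 10% of UMIs on 13 mitochondrial genes, as a share of UMIs over the 18407 genes of a joined table that the authors also deposited, were removed. Counts were log-normalized to 10000 UMIs, and 2921 variable genes without the 10 members, 15 principal components, 15 neighbours and Leiden clustering at a resolution of 0.5 (scanpy 1.11.5, leidenalg 0.10.2) gave the clusters, which were named where at least 3 markers were detected. Since the names were rebuilt here, they may differ from those of the study. Doublets were kept, since Scrublet's automatic threshold marked only 13 cells (0.232%), and the 292 cells of highest score (5.20%) were removed as an alternative.

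Sums of counts over the cells of 1 mouse and 1 type were tested with edgeR 4.0.16 (glmQLFit, glmQLFTest, filterByExpr, TMM; R 4.3.3) at a Benjamini-Hochberg adjusted p of 0.05, after a test on simulated data. The study tested single cells with MAST and also measured Rspo3 and Cxcl12 by qPCR in isolated cells of separate mice. Sums per mouse were used here because cells of 1 mouse are not replicates. Alternatives were DESeq2 1.42.0, its size factors, no filter, a mitochondrial limit of 20%, a resolution of 1.0, removed doublets, each mouse left out and a replicate block. Named genes are the members, the 3 most similar genes of each member with at least 50 UMIs, and, where no gene of a list passed, its 3 highest by mean CPM, beside genes of the lists named for their role after their values were seen. The members and gene lists were chosen with earlier results of these data known. With 2 mice a group, same-numbered mice share only a number. Their deviations correlated between -0.31 and 0.24 over the 15 sums. The recognition helix of 4 members is not reported here.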

Additional observations from a re-analysis of the deposited data

Results flagged for a closer look

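The 9 cell types with at least 10 cells in every mouse are covered here, and types with fewer cells are not listed. Among the 9, Foxo3 and Foxp1 each had types with both EC-Foxc-DKO mice above both Control mice in CPM and others with both below. The differences given are EC-Foxc-DKO minus Control means, and the difference between cell types was not tested. Foxo3 was higher in BECs by 24.1 CPM (0 and 8.92 against 23.2 and 34.0, from 0, 2, 10 and 4 UMIs). It was lower in Bottom enterocytes (-2.40 CPM, 18.8 and 14.6 against 14.3 and 14.3). In Follicular B cells it was lower too (-18.2 CPM, 31.0 and 31.5 against 16.3 and 9.83, from 13, 2, 73 and 1 UMIs). Foxp1 was higher in Enteric glia by 128 CPM (180 and 231 against 330 and 337) and in Plasma cells by 26.6 CPM (20.8 and 32.8 against 71.6 and 35.1), but lower in Follicular B cells (-94.9 CPM) and in Middle Enterocytes (-10.4 CPM, where EC-Foxc-DKO replicate 2 had 0 UMIs in 11 cells). Over all genes tested, groups without overlap in either direction after TMM scaling made up 29.9% in BECs, 33.1% in Bottom enterocytes, 28.9% in Follicular B cells, 27% in Enteric glia, 41.3% in Plasma cells and 30.4% in Middle Enterocytes. After this scaling, the groups overlapped for Foxo3 in Bottom enterocytes and for Foxp1 in Middle Enterocytes. Foxo3 in BECs and in Follicular B cells and Foxp1 in Plasma cells did not pass the filter on low counts and were not tested. None of the other differences passed edgeR's adjusted threshold.

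Outside the cells used for the report, the barcodes removed for their mitochondrial share held 11 Foxp3 UMIs in EC-Foxc-DKO replicate 2, against 0 in each of the other 3 libraries. They lay in 6 barcodes with 14.0% to 33.0% mitochondrial UMIs, of which 3 had Cd3e, a subunit of the T cell receptor complex, 5 had Ctla4, 0 had Cd4 and 2 had Epcam, an epithelial marker. With them, this library had 12 Foxp3 UMIs in 7 barcodes, against 4 UMIs in 1 barcode of Control replicate 2 and 10 UMIs in 4 barcodes of EC-Foxc-DKO replicate 1.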

How the results depend on the processing

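The number of members called stayed at 0 in all 15 sums under each of 170 alternative fits, with the lowest adjusted p at 0.0909 (Foxp1 in Bottom enterocytes without EC-Foxc-DKO replicate 1, log2 fold change -0.71). Of the 10 mean levels, 6 moved by over 1.5 times in some setting: Foxf1 in stromal cells from 80.9 to 39.8 CPM without Control replicate 1 and 38.7 without doublets, Foxf2 in Myocytes/Pericytes from 26.4 to 11.7 without Control replicate 2 and 14.1 at the mitochondrial limit of 20%, Foxl1 in LECs from 27.8 to 0 without EC-Foxc-DKO replicate 1, Foxo3 in Top Enterocytes from 167 to 98.6 without EC-Foxc-DKO replicate 2 and 105 at that limit, Foxp3 in CD4+ T cells from 17.8 to 10.3 without Control replicate 2, and Foxa2 in Enteroendocrine cells from 70.6 to 44.3 at that limit. Of 173 alternative log2 fold changes of 15 results, 160 kept their direction. DESeq2 turned Foxa2 in Crypt cells to -0.066, and the mitochondrial limit of 20% turned Foxp1 in CD8+ T cells to 0.17. Leaving out 1 mouse gave ranges across 0 for Foxo1 in BECs (-0.24 to 0.21, above 0 without either replicate 2), Foxp1 in BECs (-0.80 to 0.068, above 0 without EC-Foxc-DKO replicate 2), Foxa1 in Crypt cells (-0.50 to 0.64, below 0 without Control replicate 1), Foxa2 in Crypt cells (-1.13 to 2.24, below 0 without either replicate 1), Foxo3 in Bottom enterocytes (-0.37 to 0.0093) and Foxf1 in the mesenchymal lineage (-6.71 to 0.19), both above 0 without Control replicate 1, Foxo1 in Enteric glia (-0.96 to 0.15, above 0 without Control replicate 2) and Foxp1 in CD8+ T cells (-0.37 to 0.13, above 0 without Control replicate 2 or EC-Foxc-DKO replicate 1). Foxa3 in Crypt cells stayed at 0.78 to 1.502. The causes were not tested. Over all genes, the 0 calls of most sums (1 in Middle Enterocytes) became 0 to 7 with DESeq2, 0 to 2 with its size factors, 0 to 7 without doublets, 0 to 21 at the mitochondrial limit of 20%, 2 to 149 with no filter and up to 1162 in Bottom enterocytes without EC-Foxc-DKO replicate 1. With the replicate number as a block, 0 to 38 genes and 0 members were called, and Foxa3 in Crypt cells had 1.18. Since same-numbered mice deviated in opposite directions in 5 sums, a crossed block, chosen after the data were seen, called 63 genes in Bottom enterocytes and 8 in Crypt cells. Foxl1, Foxf2 and Foxp3 had only 4, 23 and 15 UMIs.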
